A study of Mus musculus with 16 samples.

Results

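The 10 genes of NAD synthesis and use described here were Nampt, Nmnat1, Nmnat3, Qprt, Nadsyn1, Bst1, Cd38, Sirt1, Sirt3 and Nnmt, taken by gene symbol from a kidney count table of 57186 genes. All 10 were in the table, and all 10 passed the filter of at least 100 counts summed over the libraries, which kept 25408 genes. NAD is a cofactor of redox reactions and the substrate of enzymes that break it down. Kidney cells can make it from tryptophan, from nicotinic acid or from nicotinamide, and the last of these routes, the salvage pathway, recovers the nicotinamide that NAD-consuming enzymes release. The kidney tubule reabsorbs solutes at a high energy cost and is rich in mitochondria, and Nampt expression in many tissues follows the circadian clock.

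The kidneys came from 16 male mice on a C57BL/6J background, all homozygous for the H allele of Elmo1 (Elmo1 H/H), which overexpresses this gene. Non-diabetic mice were Ins2 +/+ and diabetic mice were Ins2 Akita/+, which produces a misfolded proinsulin and hyperglycemia from a young age. The labels named 4 groups of 4 kidneys. These were non-diabetic without B12 (ND_C), non-diabetic with B12 (ND_B12), diabetic without B12 (D_C) and diabetic with B12 (D_B12), where vitamin B12 was dissolved in the drinking water (a daily dose of 10 mg/kg) beginning at 8 weeks of age, over 16 weeks by the labels and 8 weeks by the methods. The methods put the mice, with and without B12, at 16 weeks of age when the kidneys were collected. Collection was in the light phase, at ZT7 to ZT9. Total counts per library lay between 65271308 and 91771136. The defining kidney markers Lrp2, Umod and Nphs1 were present in the libraries. Markers of other cells were present too. The sums of their normalized counts were 12237.7 to 24788.2 for fibroblast and perivascular markers, 2190.9 to 20269.3 for adipocyte markers and 285.7 to 547.2 for adrenal markers, of which Cyp11b1 was at 0. B and plasma cell sums were 804.5 to 3630.8 in non-diabetic and 327.0 to 962.2 in diabetic kidneys, while T cell sums were 210.1 to 600.7 and neutrophil sums 47.6 to 238.7. In this bulk tissue fewer cells of a type and less RNA per cell cannot be told apart. The p-values set a difference between groups against the spread of the 16 libraries within their labelled groups.

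The labels carry a limit that touches every comparison. Published group means of 181 genes were matched to sets of 4 libraries, and each set lay within a median of 0.000263 on the log2 scale of the means it was matched to. By that match 5 of the 16 libraries belonged to the group of their label and 11 to another. The means given for diabetic kidneys without B12 were those of the 4 libraries labelled D_B12, and the means given for diabetic kidneys with B12 were those of D_C 2, D_C 3, D_C 4 and ND_B12 4. The sign of a difference between D_C and D_B12 therefore depends on which source holds, and the files do not settle it. The paper reports Nampt and Bst1 as raised by B12 in diabetic kidneys, whereas by the labels both were lower in D_B12 than D_C. Its RT-PCR of selected genes has a panel for Nampt, with the values shown only in a figure. D_C 1 was matched to the means given for non-diabetic kidneys with B12. By the published means, then, none of the D_C kidneys was diabetic without B12. A difference between D_C and ND_C would not be one of diabetes alone. Every group and direction below is that of the labels. ND_C 3, ND_B12 1, ND_B12 4 and D_C 1 were the libraries that parted from most of their labelled group in this match, and results without these 4 are given where they differ. The labels also carry dates, 10 in all, that follow the groups closely. Of the 4 pairs of groups compared, only ND_C and ND_B12 shared a date, through ND_C 4 and ND_B12 1. ND_B12 2, ND_B12 3, ND_B12 4 and D_C 1 also carried the same date, and they meet only in the averages and the interaction.

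The start regions of Nampt and Sirt1 are shown because both genes are studied as partners of the clock, whose activators bind the E-box CACGTG, a palindrome that reads the same on both strands. The sequences are RefSeq promoter windows placed by exact match on GRCm39, printed up to the first annotated exon that they meet. Capitals mark the E-box.
Nampt, chr12:32870084-32870169, plus strand: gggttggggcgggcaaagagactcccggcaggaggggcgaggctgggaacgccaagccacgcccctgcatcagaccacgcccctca
Sirt1, chr10:63174872-63175064, minus strand: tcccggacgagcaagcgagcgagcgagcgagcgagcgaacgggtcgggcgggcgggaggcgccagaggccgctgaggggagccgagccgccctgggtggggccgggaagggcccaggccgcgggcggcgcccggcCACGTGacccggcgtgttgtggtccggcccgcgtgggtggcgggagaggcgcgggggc
The Sirt1 window held 2 matches. The first began 58 bases before the start of the main Sirt1 transcript and the second at base 15 of its first exon, which is not printed. The Nampt window held none. The main Nampt transcript starts at 32870222, after the printed bases. Both printed stretches lie inside the annotated spans of their genes, which begin further upstream, so other starts are not shown. Windows this short cannot show whether a gene has an E-box elsewhere. RefSeq windows of 300 bases (build GRCm38.p6, 250 before and 50 after a start) were found for 8 of the 10 genes, in 10 windows, and the Sirt1 window was the only 1 of these with CACGTG. Among all 32851 windows 7.15% held it. Bst1 and Nnmt had no entry.

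Nampt, the rate-limiting enzyme of the salvage pathway, was the most abundant of the 10 genes. Its level per length, in CPM per kilobase of annotated exon (CPM scales each library to the same total), averaged 30.6 ± 4.49 (SD, n = 16). Qprt, which turns quinolinic acid from tryptophan into the first mononucleotide of the de novo route, followed at 8.7 ± 1.5. The mitochondrial deacetylase gene Sirt3 was at 6.96 ± 0.545 and the nuclear deacetylase gene Sirt1 at 3.99 ± 0.233. Nmnat1, the nuclear enzyme of the last salvage step, was at 3.8 ± 0.35, and was below Sirt1 in 10 of 16 libraries, so these neighbours in the order did not separate. Nadsyn1, the amidating enzyme that ends the de novo and nicotinic acid routes, reached 2.97 ± 0.247. The NAD glycohydrolase genes Cd38 and Bst1 averaged 2.32 ± 0.292 and 2.19 ± 0.962 and overlapped, with Cd38 above Bst1 in 11 of 16 libraries. Nmnat3, a mitochondrial counterpart of Nmnat1, was at 1.44 ± 0.076, below Bst1 in 12 of 16 libraries. Nnmt, which methylates nicotinamide for excretion, was lowest at 0.182 ± 0.0645, with 788 counts over all libraries, the fewest of the 10 genes. With the longest transcript as the length in place of all exons, Sirt3 (14.3) stood above Qprt (10.1) and Nmnat3 (3.42) above Cd38 (3.05) and Bst1 (2.54).

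The genes also differed in how much the kidneys varied. Sirt1 normalized counts spanned 1.19-fold from the lowest to the highest of the 16 libraries and Nmnat3 1.23-fold. Nadsyn1, Sirt3 and Nmnat1 spanned 1.4-fold, 1.36-fold and 1.42-fold, while Cd38 and Nampt spanned 1.67-fold and 1.71-fold. Qprt spanned 2.34-fold. Nnmt at 3.32-fold and Bst1 at 4.02-fold varied most. The plot of normalized counts by library shows these spreads group by group.

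**Figure D1:**
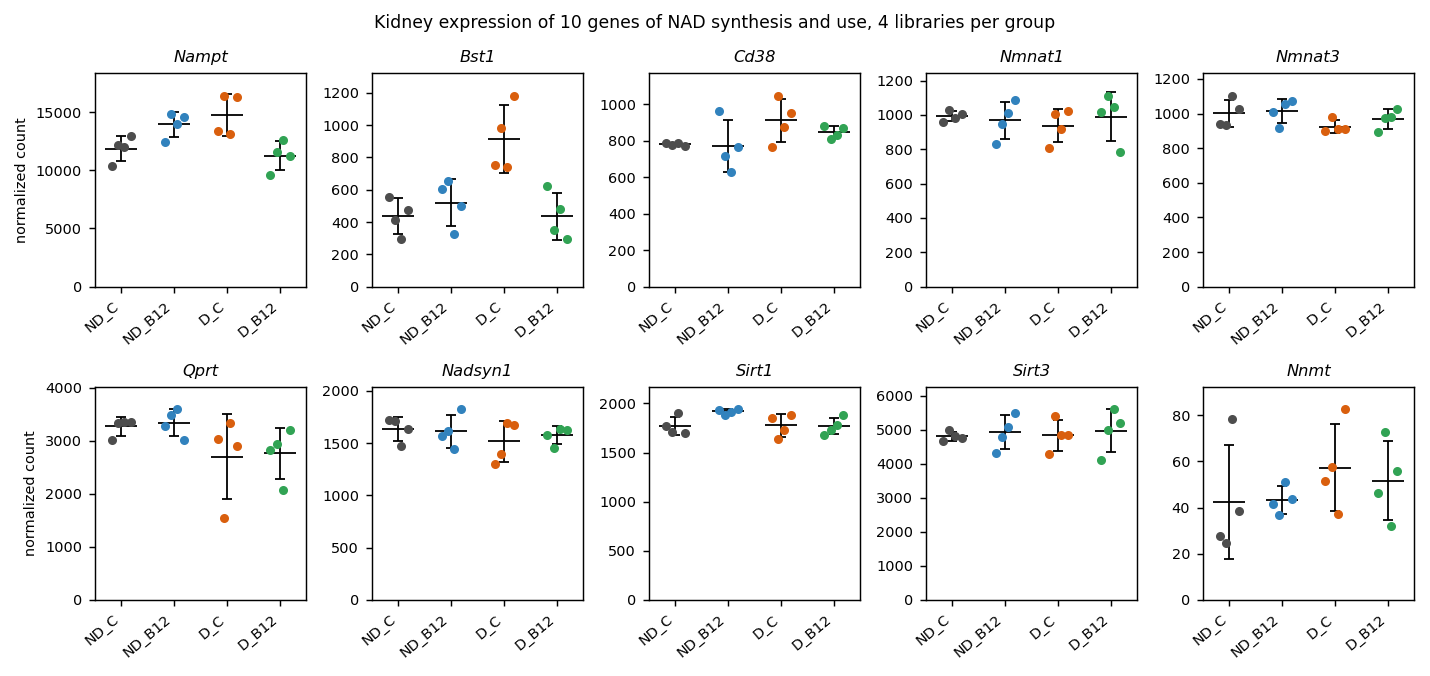
Normalized counts of the 10 genes in each of the 4 libraries of ND_C, ND_B12, D_C and D_B12, on linear axes that start at 0; points are libraries, and bars are the mean and SD. Nampt and Bst1 in D_C sit above ND_C and above D_B12 without overlap, whereas Sirt1, Sirt3, Nmnat1 and Nadsyn1 sit at near the same height in every group.

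Nampt lies on the plus strand of chromosome 12 (GRCm39, 32869544 to 32903368) and overlaps no other annotated gene. Its normalized counts were 13337, 16376, 13124 and 16278 in D_C and 9577, 11587, 12639 and 11241 in D_B12. In the non-diabetic kidneys they were 10402, 12157, 11996 and 12911 in ND_C, and 12410, 14863, 14000 and 14563 in ND_B12. Every D_C kidney was above every ND_C kidney and every D_B12 kidney, whereas ND_B12 overlapped with each of the other groups. Group means (± SD, n = 4) were 14778.7 ± 1790.3 in D_C, 11261.1 ± 1270.7 in D_B12, 11866.5 ± 1055.0 in ND_C and 13959.1 ± 1092.7 in ND_B12. With edgeR's quasi-likelihood test and Benjamini-Hochberg adjustment over 25408 genes, Nampt differed in D_C from ND_C by a log2 fold change of 0.32 ± 0.0989 (SE), with an unadjusted p-value of 0.00567 and an adjusted p-value of 0.102. In D_B12 against D_C the log2 fold change was -0.39 ± 0.099, with an edgeR unadjusted p-value of 0.00117 and an adjusted p-value of 0.112. Neither passed the adjusted threshold of 0.05.

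In non-diabetic kidneys the Nampt difference had the other sign. ND_B12 against ND_C gave a log2 fold change of 0.24 ± 0.0989, with an edgeR unadjusted p-value of 0.0283 and an adjusted p-value of 0.637. On the only date with both groups, the kidney without B12 had 12911 and the kidney with B12 12410. Between the B12-treated groups, D_B12 against ND_B12 gave -0.31 ± 0.099 (edgeR, unadjusted p-value 0.00606, adjusted p-value 0.122). The interaction, which is the effect of B12 in diabetic kidneys minus that in non-diabetic kidneys, was -0.63 ± 0.14 with an edgeR unadjusted p-value of 0.00037 and an adjusted p-value of 0.0644. It kept its sign in all 23 alternatives, with adjusted p-values from 0.00284 (DESeq2) to 0.143 (without D_C 4). It was also past the threshold with a term for the label date (0.0246) and on leaving out ND_B12 1 (0.0414) or D_C 1 (0.0442). Because the signs were opposite, the average of Nampt over both B12 contrasts was only -0.08 ± 0.0699 (edgeR, adjusted p-value 0.997) and over both diabetes contrasts 0.00 ± 0.0699 (edgeR, adjusted p-value 0.994). The average diabetes difference turned sign in 7 of its alternatives.

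Bst1 encodes CD157, a cell surface enzyme of the CD38 family that cleaves NAD and related nucleotides. It lies on chromosome 5 (GRCm39, 43976227 to 44001328, plus strand), where it overlaps Fbxl5 on the opposite strand. Cd38 follows 24546 bases downstream. By the study's methods strand was taken from intron motifs in the alignment, which marks spliced reads. Whether the libraries kept strand is not given in the sources used here, so unspliced reads of Bst1 and Fbxl5 may not be told apart. Bst1 normalized counts were 751, 985, 742 and 1180 in D_C and 621, 348, 481 and 294 in D_B12, against 556, 415, 293 and 477 in ND_C and 602, 652, 323 and 500 in ND_B12. All 4 D_C kidneys were above all 12 other kidneys, which overlapped among themselves. Means (± SD, n = 4) were 914.4 ± 209.4 in D_C, 436.0 ± 146.2 in D_B12, 435.2 ± 110.8 in ND_C and 519.2 ± 145.1 in ND_B12.

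Bst1 rose in D_C against ND_C by a log2 fold change of 1.07 ± 0.259, a 2.1-fold difference, with an edgeR unadjusted p-value of 0.000781 and an adjusted p-value of 0.0492, just past the threshold. The call was lost when ND_C 1, ND_C 2, ND_C 3, ND_C 4, ND_B12 2, D_C 2, D_C 3, D_C 4, D_B12 2 or D_B12 3 was left out in turn, with log2 fold changes from 0.92 to 1.20 and adjusted p-values up to 0.138. It was also lost with a term for the label date (adjusted p-value 0.183) and without the 4 libraries named above (log2 fold change 1.01, adjusted p-value 0.072), and DESeq2 gave an adjusted p-value of 0.00161. In D_B12 against D_C the log2 fold change was -1.06 ± 0.259 (0.478-fold), with an edgeR unadjusted p-value of 0.000817 and an adjusted p-value of 0.103. Its range over the alternatives was 0.00359 with DESeq2 to 0.347 with the label date. The interaction was -1.32 ± 0.365 (edgeR, unadjusted p-value 0.00227, adjusted p-value 0.106), and was past the threshold with DESeq2 alone (0.0119). Bst1 in ND_B12 against ND_C gave 0.26 and in D_B12 against ND_B12 -0.25, each with an SE of 0.258 and an interval that spans 0.

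Cd38, the main NAD glycohydrolase of many tissues, lies at 44025875 to 44069717 on the plus strand of chromosome 5 and overlaps the predicted genes Gm16014, Gm72199 and Gm16015. Its normalized counts were 767, 1044, 877 and 954 in D_C and 878, 806, 832 and 869 in D_B12, against 784, 774, 790 and 771 in ND_C and 964, 718, 627 and 764 in ND_B12. The ND_C kidneys were close together, ND_B12 held both the lowest and the second highest value of the 16, and no pair of compared groups was fully apart. Averaged over treatment, diabetic kidneys had a Cd38 log2 fold change of 0.18 ± 0.079 (edgeR, unadjusted p-value 0.0371, adjusted p-value 0.224). Without the 4 libraries named above it was 0.32 with an adjusted p-value of 0.0141, the only alternative of 23 past the threshold, and with the label date the adjusted p-value was 0.719.

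Qprt lies on the minus strand of chromosome 7 (GRCm39, 126704596 to 126721398). Its normalized counts were 3023, 1534, 3338 and 2904 in D_C and 2823, 2944, 2074 and 3197 in D_B12, against 3009, 3339, 3360 and 3356 in ND_C and 3269, 3476, 3588 and 3021 in ND_B12. The 2 lowest kidneys, D_C 2 and D_B12 3, were diabetic, and the other diabetic kidneys overlapped with the non-diabetic ones. Averaged over treatment, the Qprt log2 fold change with diabetes was -0.28 ± 0.125 (edgeR, unadjusted p-value 0.0418, adjusted p-value 0.237), and it was -0.18 without D_C 2. The summed normalized counts of 7 proximal tubule markers were 188928.4 to 225767.6 in the diabetic kidneys and 228800.6 to 243640.5 in the non-diabetic ones, without overlap. The part of the proximal tubule in the Qprt values was not tested.

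Sirt1 lies on the minus strand of chromosome 10 (GRCm39, 63154581 to 63217483) and shares part of its span with Herc4 on the opposite strand. Its normalized counts were 1852, 1635, 1730 and 1886 in D_C and 1683, 1731, 1776 and 1878 in D_B12, against 1771, 1709, 1902 and 1694 in ND_C and 1936, 1886, 1911 and 1939 in ND_B12. The ND_B12 kidneys formed a narrow band near the top, above every D_B12 kidney, and the other 3 groups overlapped. Sirt1 in D_B12 against D_C had a log2 fold change of -0.01 ± 0.0578 (edgeR, unadjusted p-value 0.921, adjusted p-value 0.981), with a 95% interval from -0.128 to 0.117. In D_C against ND_C it was 0.01 ± 0.0578 (edgeR, adjusted p-value 0.974). Both of these near-zero values turned sign in some alternatives. The B12 difference in non-diabetic kidneys was 0.12 ± 0.0579 (edgeR, unadjusted p-value 0.0525, adjusted p-value 0.663) and the diabetes difference in B12-treated kidneys -0.12 ± 0.0579 (edgeR, unadjusted p-value 0.0521, adjusted p-value 0.3). These 2 contrasts share the ND_B12 kidneys. The Sirt1 interaction was -0.13 ± 0.0818 (edgeR, adjusted p-value 0.484). Its averages were 0.06 ± 0.0409 for B12 (edgeR, adjusted p-value 0.989) and -0.06 ± 0.0409 for diabetes (edgeR, adjusted p-value 0.473).

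Nmnat1, Nmnat3, Nadsyn1, Sirt3 and Nnmt reached an unadjusted p-value below 0.05 in none of the 7 comparisons, by edgeR. Nmnat1, on chromosome 4 (GRCm39, 149552026 to 149569680, minus strand), ranged from 783 to 1110 normalized counts, with a lowest and a highest value that both came from D_B12. Nmnat3, on chromosome 9 (98169483 to 98302816, plus strand), ranged from 892 to 1101. Nadsyn1, on chromosome 7 (143349314 to 143376610, minus strand), ranged from 1300 to 1824, and Sirt3, also on chromosome 7 (140443577 to 140462311, minus strand, sharing bases with Ric8a and Psmd13), from 4110 to 5603. Group means of these genes stayed close, for example 4808.3 in ND_C and 4978.0 in D_B12 for Sirt3. Nnmt, on chromosome 9 (48448913 to 48518959, minus strand), ranged from 24.9 to 82.5. Its log2 fold change of 0.44 ± 0.345 in D_C against ND_C had an interval up to 1.17, so a doubling lies within it.

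Counted over the 10 genes, the calls of each comparison read as follows against all 25408 genes. In D_C against ND_C 1 of 10 (Bst1) passed the adjusted threshold in edgeR, as 1.66% of all genes did, and 2 did in DESeq2 (6.31%). Nampt and Bst1, both higher, were the 2 with an unadjusted p-value below 0.05 (18.6% of all genes) and also the 2 whose groups did not overlap (9.44%). In D_B12 against D_C 0 of 10 passed the adjusted threshold in edgeR (0.0% of all genes) and 2 did in DESeq2 (2.68% of all genes), 2 (Nampt and Bst1, both lower) had an unadjusted p-value below 0.05 (13.6% of all genes), and the same 2 did not overlap (6.58%). These 2 comparisons share the D_C kidneys. In ND_B12 against ND_C 0 of 10 passed the adjusted threshold in edgeR (0.0%) and in DESeq2 (0.0236%), 1 (Nampt) had an unadjusted p-value below 0.05 (7.62%), and 0 had groups apart (4.81%). In D_B12 against ND_B12 0 of 10 passed in edgeR (0.823%) and in DESeq2 (4.51%), 1 (Nampt) had an unadjusted p-value below 0.05 (17.0%), and 1 (Sirt1) had groups apart (11.7%). For the interaction 0 of 10 passed in edgeR (0.0%) and 2 in DESeq2 (3.63%), while unadjusted p-values under 0.05 (16.1%) were found for 2, Nampt and Bst1. For the average of B12 0 of 10 passed in edgeR (0.0%) and in DESeq2 (0.0236%), and 1 (Bst1) had an unadjusted p-value below 0.05 (5.2%), with a log2 fold change of -0.40 ± 0.182 (edgeR, unadjusted p-value 0.0425, adjusted p-value 0.946). For the average of diabetes 0 of 10 passed in edgeR (3.02%) and in DESeq2 (7.21%), and 3 (Bst1, Cd38 and Qprt) had an unadjusted p-value below 0.05 (19.4%). The Bst1 value there was 0.41 ± 0.182 (edgeR, unadjusted p-value 0.0398, adjusted p-value 0.232). With 10 genes these shares are coarse, and most of the unadjusted ones are near those of all genes. The median log2 fold change of the 10 genes lay between -0.05 and 0.04 in all 7 comparisons.

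**Figure D2:**
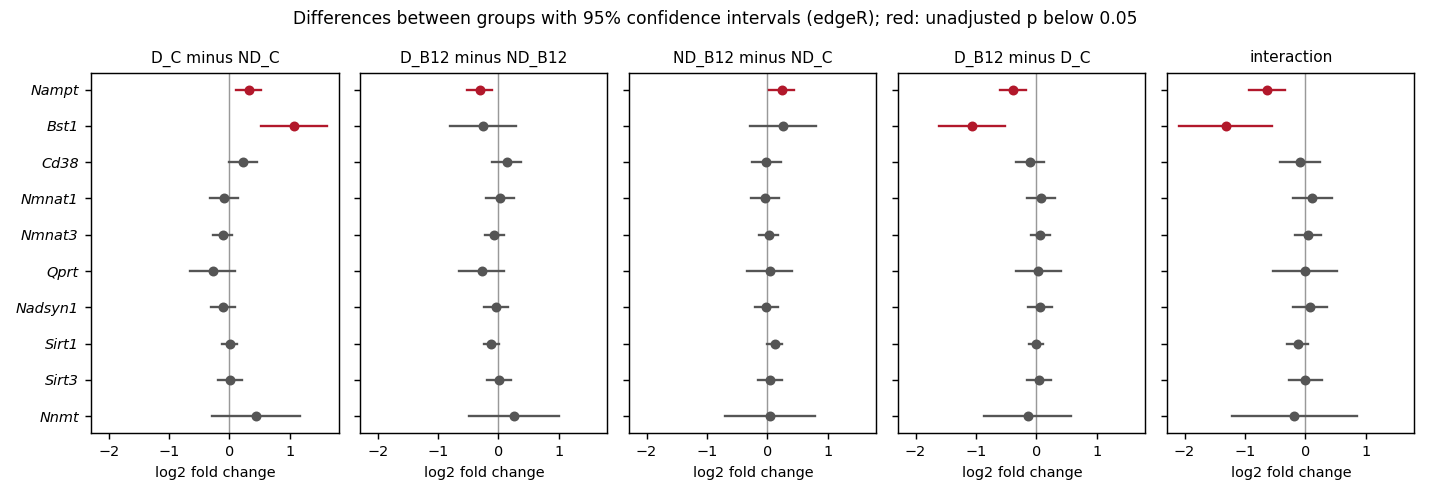
Log2 fold changes of the 10 genes (x axis) with 95% confidence intervals from edgeR for 4 pairs of groups and the interaction; red marks an unadjusted p-value below 0.05. Nampt and Bst1 are the only red genes, above 0 in D_C minus ND_C (0.32 and 1.07) and below 0 in D_B12 minus D_C (-0.39 and -1.06), and the widest intervals belong to Nnmt.

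Across the 16 libraries the genes most like Nampt, by Pearson's r of log2 CPM among 16156 genes with a mean of at least 1 CPM, were Myo1c (0.896), Slc25a33 (0.888), Kng2 (0.871), Cry2 (0.865) and Xpc (0.864). Cry2 is a repressor of the circadian clock and Slc25a33 a mitochondrial nucleotide carrier. By Spearman's rho Myo1c, Slc25a33 and Cry2 stayed among the first 5. Over all libraries Nampt had an r of -0.824 with Bmal1, -0.778 with Npas2 and -0.484 with Clock, which are clock activators. With further repressors r was 0.781 for Nr1d2, 0.705 for Cry1, 0.659 for Per3, 0.622 for Per1 and 0.535 for Per2. For the repressor Nr1d1 it was -0.317. These libraries share groups, dates and collection, and the values describe them without a test. The summed normalized counts of 10 clock repressors and output genes were 34874.1 to 40232.8 in D_C, 24061.3 to 29426.9 in D_B12, 24261.0 to 33147.4 in ND_C and 26417.9 to 42292.8 in ND_B12, so D_C and D_B12 were apart as they were for Nampt. Those of 3 activators ran the other way, from 5857.3 to 8069.7 in D_C and 8834.0 to 10717.1 in D_B12. Of the 10 repressors and outputs 8 were lower in D_B12 than D_C at an unadjusted p-value below 0.05, as 7.21% of all genes were, and 0 passed the edgeR adjustment (0.0%). The part of the clock, or of the hour of collection, in the Nampt values was not tested.

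The genes most like Bst1 were Epcam (0.958), Srgap3 (0.943), Dsp (0.933), Tmem30b (0.932) and Spon1 (0.93). Epcam encodes an epithelial adhesion molecule and Dsp a desmosomal plaque protein. By Spearman's rho Epcam, Dsp, Tmem30b and Spon1 stayed among the first 5. Because these are epithelial genes, marker lists of the distal nephron were set beside Bst1 after the values had been seen. The sum of 7 principal cell markers of the collecting duct was 36381.0 to 55739.9 in D_C, 26930.8 to 45107.4 in D_B12, 26583.9 to 30814.2 in ND_C and 29669.2 to 39588.1 in ND_B12, so D_C lay above ND_C but overlapped with D_B12. Of that list Bst1 had an r of 0.865 with Fxyd4, 0.765 with Aqp2, 0.658 with Aqp3 and 0.555 with Aqp4. It was lower for Scnn1g (0.356), Scnn1b (0.285) and Hsd11b2 (0.223). The sum of 5 intercalated cell markers was 13021.5 to 19805.0 in D_C, 13017.4 to 13924.0 in D_B12, 11830.8 to 13005.3 in ND_C and 12172.1 to 16154.4 in ND_B12, so D_C again lay above ND_C and overlapped with D_B12. These 5 markers were divided in their r with Bst1. It was 0.794 for Aqp6 and 0.721 for Slc4a1, but 0.00507 for Atp6v1g3, -0.156 for Slc26a4 and -0.309 for Foxi1. The sum of 4 thick ascending limb markers was 239073.6 to 322836.0 in D_C, 180687.2 to 211093.1 in D_B12, 244232.2 to 296904.2 in ND_C and 203270.6 to 306411.4 in ND_B12, so here D_C was apart from D_B12, as for Bst1, and overlapped with ND_C. Of that list Bst1 had an r of 0.739 with Slc12a1, 0.521 with Kcnj1, 0.177 with Umod and 0.0948 with Cldn16. The sum of 8 macrophage markers was 6876.9 to 7539.5 in D_C, 5131.8 to 5775.4 in D_B12, 7501.7 to 9062.7 in ND_C and 5455.7 to 7864.1 in ND_B12, lower in D_B12 than D_C as Bst1 was, but not higher in D_C than ND_C. Endothelial sums were 21212.3 to 25072.6 in D_C, 19181.4 to 22305.9 in D_B12, 17000.3 to 19045.8 in ND_C and 19356.2 to 22630.5 in ND_B12. There D_C lay above ND_C but overlapped with D_B12 and ND_B12. No marker of these lists was at 0 in every library, and the part of cell makeup in the Bst1 values was not tested.

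**Figure D3:**
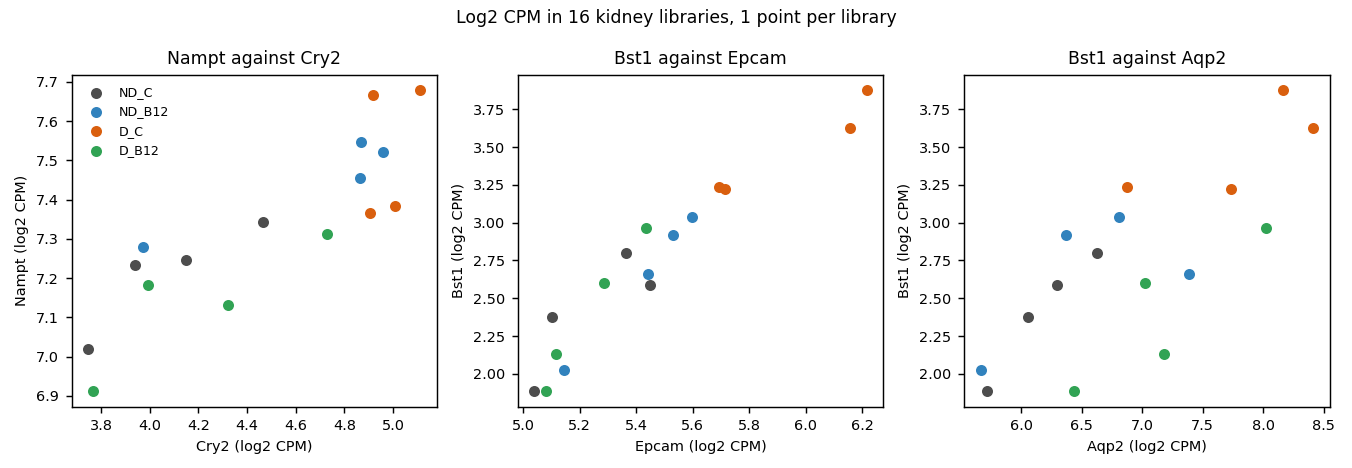
Log2 CPM of Nampt against Cry2, Bst1 against Epcam and Bst1 against Aqp2, with 1 point for each of the 16 libraries, coloured by group. Nampt and Cry2 rise together (r = 0.865), Bst1 and Epcam lie near a line (r = 0.958), and Bst1 against Aqp2 is looser (r = 0.765).

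A single coding transcript carried most of the estimated count of most of the genes. The leading transcript held 99.5% of the count for Nampt, 99.0% for Qprt, 98.1% for Cd38, 97.0% for Bst1, 88.0% for Nmnat3, 87.0% for Nmnat1 and 85.7% for Nnmt. That of Bst1 averaged between 95.2% and 98.3% in the 4 groups, so its other transcripts were minor in every group. The leading Sirt1 transcript held 72.9%, and its share per group ran from 65.8% ± 17.3 in D_C to 80.7% ± 5.67 in ND_C (SD, n = 4). The leading Nadsyn1 transcript held 77.6%, and a transcript annotated as a target of nonsense-mediated decay 18.9%. The latter averaged 39.0% ± 10.1 in ND_B12 and 20.9% ± 23.2 in ND_C. Sirt3 was the most divided, with 39.4% in a coding transcript, 19.2% in a decay-annotated one and 13.7% in a second coding one. Within groups the shares spread widely (an SD of up to 23.4 percentage points for Nadsyn1), and no test was made on them.

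Around the 10 genes, 45 further genes of NAD metabolism were listed, of which 42 were tested (Ido1, Nmrk2 and Aox4 had too few counts). In D_C against ND_C 2 passed the edgeR adjustment (1.66% of all genes), both higher, and 7 were higher (9.31% of all genes) and 7 lower (9.28%) at an unadjusted p-value below 0.05. In D_B12 against D_C 0 passed (0.0%), with 1 higher (6.44%) and 6 lower (7.21%) at an unadjusted p-value below 0.05. Averaged over treatment, 3 (Haao, Pnp and Naxe) fell with diabetes by the edgeR adjustment (2.16% of all genes) and 0 rose, with 7 higher (8.84%) and 13 lower (10.5%) unadjusted. All 3 calls were lost with a term for the label date, under which 0 of all genes passed for this average (smallest adjusted p-value 0.0629). Nnt, a mitochondrial transhydrogenase gene, is listed under 2 entries between which its reads are divided, and it was read from 1 of them. It is among the 7 higher genes in D_C against ND_C and among the 7 in the average, and without it each count is 6. The sum of both Nnt entries averaged 9432.8 normalized counts in ND_C and 9732.7 in D_C. The median log2 fold change of these 42 was -0.03, -0.02 and -0.05 in the same order.

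In the de novo route, Haao makes the precursor of quinolinic acid, and Acmsd diverts that precursor away from NAD. Haao was 9991, 11149, 11064 and 11257 in ND_C and 9057, 9002, 9080 and 9485 in D_C, groups that did not overlap. Its log2 fold change in D_C against ND_C was -0.25 ± 0.0627 (edgeR, unadjusted p-value 0.00117, adjusted p-value 0.0547), past the threshold without ND_B12 4 (0.0341) or D_C 1 (0.0468). Averaged over treatment Haao fell by 0.18 ± 0.0444 on the log2 scale with diabetes (edgeR, adjusted p-value 0.0373). This call was lost on leaving out any library but ND_C 1, ND_B12 4, D_C 1 or D_B12 4 (adjusted p-values up to 0.0907), and it was at 0.38 with the label date and 0.0503 under upper-quartile scaling. Acmsd was -0.58 ± 0.155 in D_C against ND_C (edgeR, adjusted p-value 0.0651, and 0.0486 without D_B12 3) and 0.46 ± 0.154 in D_B12 against D_C (edgeR, adjusted p-value 0.202). Kynu, which makes 3-hydroxyanthranilic acid, the substrate of Haao, had a log2 fold change of 1.21 ± 0.404 in D_C against ND_C (edgeR, adjusted p-value 0.121, and 0.0254 without the 4 libraries named above). Of the 8 de novo genes tested, Qprt included, 6 were lower with diabetes on average at an unadjusted p-value below 0.05, against 10.5% of all genes, and 1 of them, Haao, passed the adjustment. The 6 include Acmsd, which leads away from NAD (log2 fold change -0.27 ± 0.109, edgeR, unadjusted p-value 0.0269). In D_B12 against ND_B12 Acmsd was at 0.05 ± 0.154 (edgeR, unadjusted p-value 0.759). Its interaction was 0.63 ± 0.218 (edgeR, unadjusted p-value 0.0109, adjusted p-value 0.172). Kmo, also among the 6, was 3477 in D_C 2 and 7627 to 8070 in the other D_C kidneys. The count of 6 is not given here without D_C 2 or with the label date. At an unadjusted p-value below 0.05, 1 de novo gene, Kynu, was higher on average, against 8.84% of all genes. Its log2 fold change was 0.80 ± 0.283 (edgeR, unadjusted p-value 0.0124, adjusted p-value 0.13). The sum of 7 proximal tubule markers given beside Qprt was lower in diabetic kidneys too. Singly, 3 of the 7 were lower and 1 was higher on average at an unadjusted edgeR p-value below 0.05, beside the same shares of all genes. After adjustment 0 of the 7 passed (3.02% of all genes). The part of the proximal tubule in the de novo values was not tested.

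In salvage and the reactions around it, Pnp, a purine nucleoside phosphorylase that also acts on nicotinamide riboside, fell with diabetes on average by 0.22 ± 0.0528 on the log2 scale (edgeR, adjusted p-value 0.0347). In D_C against ND_C it was at -0.23 ± 0.0746 (edgeR, adjusted p-value 0.107). The Pnp average lost its call on leaving out ND_C 2, ND_C 3, ND_B12 1, ND_B12 3, D_C 2, D_B12 1, D_B12 3 or D_B12 4 (adjusted p-values up to 0.0753), with the label date (0.429) and without the 4 libraries named above (0.0838). Naxe, which repairs damaged NADH and NADPH, fell on average by 0.17 ± 0.0451 (edgeR, adjusted p-value 0.0492). The Naxe call was lost on leaving out any library but ND_B12 4, D_C 1 or D_C 2 (adjusted p-values up to 0.103), with the label date (0.381) and without the 4 libraries (0.0649). Nadk, which phosphorylates NAD to NADP, was at -0.23 ± 0.0706 in D_C against ND_C (edgeR, adjusted p-value 0.0934). Naprt, the nicotinic acid counterpart of Nampt, was at 0.02 ± 0.0913 in D_C against ND_C and -0.20 ± 0.0914 in D_B12 against D_C (edgeR, adjusted p-value 0.364). Nmnat2, the third NMN adenylyltransferase, had at most 32.7 normalized counts in any library, and the glycohydrolase gene Sarm1 at most 57.2.

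Among the consumers, 7 of 7 sirtuins had an unadjusted p-value of 0.05 or more in D_C against ND_C and in D_B12 against D_C. Sirt4, at 571.7 to 617.6 in D_C and 646.9 to 690.9 in ND_C, did not overlap between these groups, as 9.44% of all genes did not. Of 14 PARP genes, 2 rose in D_C against ND_C, where 0.937% of all genes did. Parp4, which encodes the PARP of vault particles, was 2854, 2713, 2598 and 2880 in ND_C and 3310, 2956, 3456 and 3463 in D_C, without overlap, for a log2 fold change of 0.26 ± 0.058 (edgeR, adjusted p-value 0.0429). Tnks, encoding tankyrase, was 6889, 6582, 6448 and 6587 in ND_C and 7378, 8246, 8598 and 8502 in D_C, for 0.30 ± 0.0673 (edgeR, adjusted p-value 0.0408). The Parp4 call was lost on leaving out ND_C 1, ND_C 2, ND_C 3, ND_B12 2, ND_B12 3, D_C 3, D_C 4, D_B12 2 or D_B12 4, with adjusted p-values up to 0.125, and that of Tnks on leaving out any ND_C library, ND_B12 2, D_C 2, D_C 3, D_C 4 or D_B12 2, up to 0.12. With a term for the label date they were 0.43 and 0.388. In D_B12 against D_C Parp4 was at -0.23 ± 0.0579 (edgeR, adjusted p-value 0.109, and 0.0463 without D_C 2) and Tnks at -0.19 ± 0.0673 (edgeR, adjusted p-value 0.232). Parp2, a DNA damage sensor, was at 0.35 ± 0.117 and Parp11 at -0.39 ± 0.0959 in D_C against ND_C (edgeR, adjusted p-values 0.119 and 0.0504), the latter past the threshold without ND_B12 1, ND_B12 4 or D_C 1. In the clearance of nicotinamide, Aox3, an aldehyde oxidase, was 73.6, 54.7, 43.0 and 37.4 in ND_C, 194.8, 170.1, 140.4 and 201.9 in D_C and 189.6, 73.5, 54.3 and 24.3 in D_B12. Its log2 fold change in D_C against ND_C was 1.76 ± 0.444 (edgeR, adjusted p-value 0.0539), past the threshold without ND_B12 1, D_C 1, D_B12 1 or D_B12 4.

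**Figure D4:**
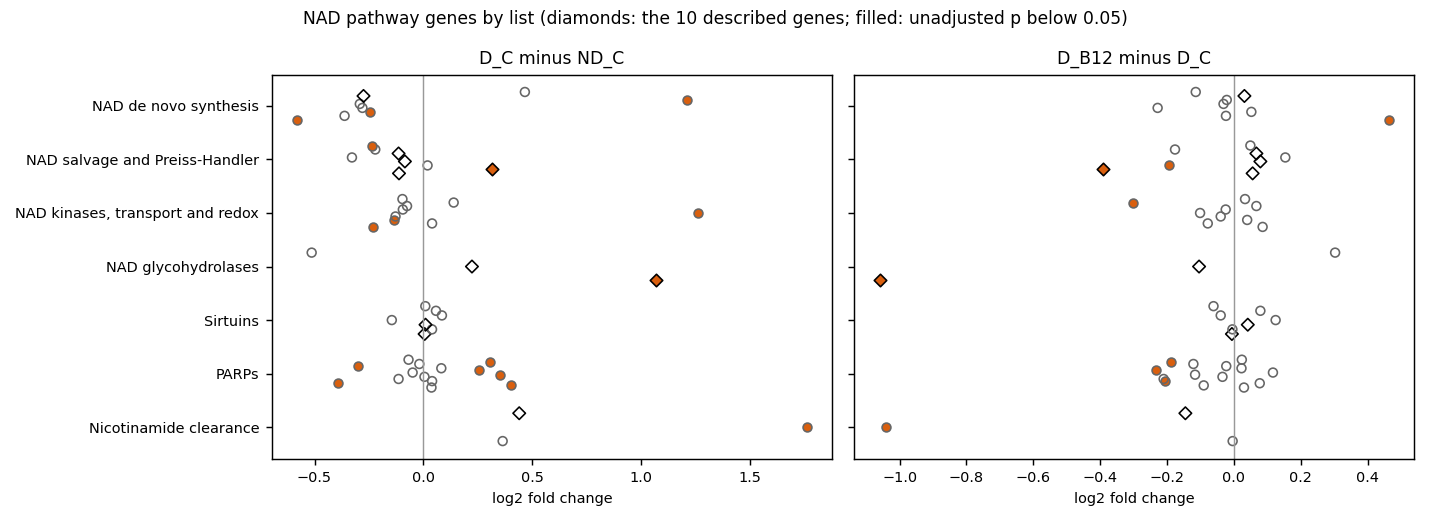
Log2 fold changes (x axis) of the tested genes of each NAD list (rows) in D_C minus ND_C and D_B12 minus D_C; diamonds are the 10 described genes, circles the further genes, and filled points have an unadjusted p-value below 0.05. Sirtuins lie near 0 in both panels, and Bst1, at 1.07 and -1.06, and Aox3, at 1.76 and -1.04, are the genes beyond 1 from 0 in both panels, with opposite signs; the 2 panels share the D_C kidneys.

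In D_C against ND_C and in D_B12 against D_C, the sign of the Nampt and Bst1 differences held in every alternative run. Over 24 alternatives Nampt in D_B12 against D_C ran from -0.59 to -0.31 and in D_C against ND_C from 0.17 to 0.37 on the log2 scale. Bst1 in the same comparisons ran from -1.27 to -0.81 and from 0.92 to 1.29. All of these alternatives keep the labelled groups, so they do not bear on the mismatch between the labels and the published means.

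**Figure D5:**
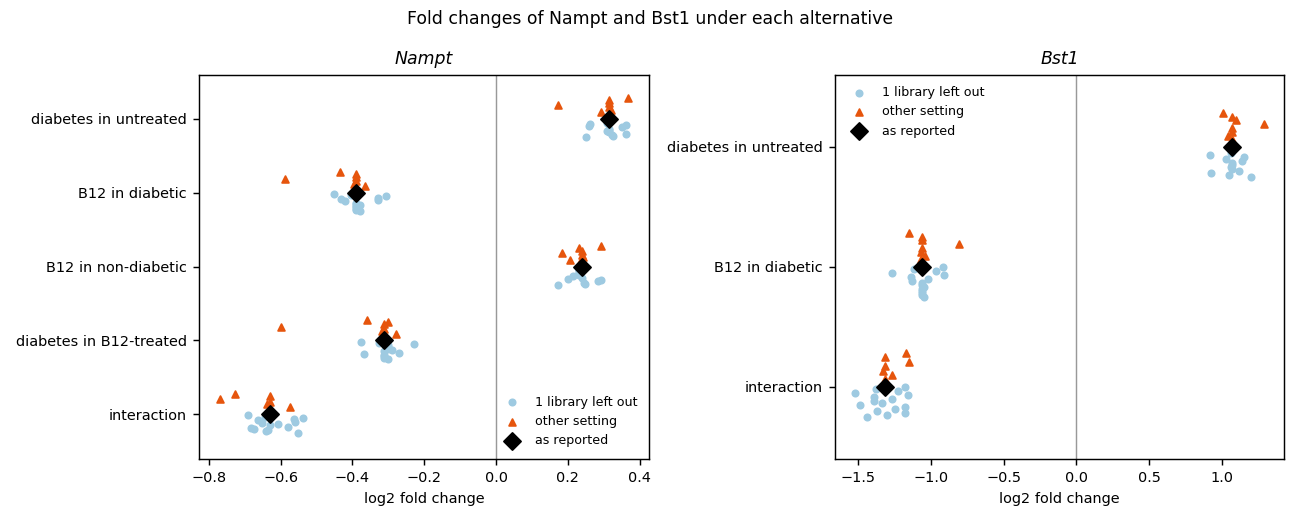
Log2 fold changes (x axis) of Nampt in 5 comparisons and of Bst1 in 3 (rows, without the averages) as reported (black diamonds), with each of the 16 libraries left out in turn (blue circles) and under each other setting (orange triangles). No point drawn crosses 0, and the Nampt interaction lies between -0.77 and -0.54.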

How the data were processed

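RNA from 16 mouse kidneys was measured. The authors used STAR to align paired-end reads (GRCm39, GENCODE vM35) and deposited estimated counts per gene and per transcript made with StringTie and prepDE; these were whole numbers and rounding changed 0 values. The submitters' processing notes also name bcl2fastq 2.20.0. Each of the 16 columns was matched to its library by the library name, leaving 0 columns without one. Genes with at least 100 counts in all were tested in R 4.3.3 with edgeR 4.0.16 (glmQLFit, glmQLFTest, TMM, all 16 libraries in 1 fit, 12 residual degrees of freedom, two-sided, Benjamini-Hochberg adjustment at 0.05). Normalized counts are counts over median-of-ratios size factors. Log2 CPM used a prior count of 2. The common biological coefficient of variation between libraries was 0.201. Levels per length used GENCODE vM39 exons, and positions come from that annotation. Alternatives were DESeq2 1.42.0, upper-quartile normalization, other filters, the label date, the replicate block, the compared groups alone, and libraries left out. The model was tested on simulated data.

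The 10 genes and the lists were chosen with earlier results of these data known. Nampt and Sirt1 were described in every comparison, other members where the unadjusted p-value was below 0.05, and further pathway genes where it was below 0.01 in D_C against ND_C or D_B12 against D_C, or where they share a step with a member; Haao, Pnp and Naxe were also named for their average over treatment, after their values were seen. A symbol with several entries was read from the most abundant one. The lists printed with counts were those of NAD metabolism, the clock, and cell markers.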

Additional observations from a re-analysis of the deposited data

Results flagged for a closer look

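Qprt in ND_C 1, at 3008.8 normalized counts, lay far from the other 3 kidneys of its group (3339, 3360 and 3356), with a gap to its nearest neighbour of 0.941 of the group's range, past Dixon's 95% critical value for 4 values. It was the only such value among 40 groups of 4 examined, and chance flags about 1 in 20.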

How the results depend on the processing

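Of the 10 genes, the number past the adjusted threshold rose from 0 to 2 with DESeq2 for B12 in diabetic kidneys and for the interaction, where the label date and the replicate block gave 1 each and leaving out single libraries gave 0 to 1. For diabetes in untreated kidneys it was 1, and 2 with DESeq2, 0 without a filter beyond 1 count, 0 with the label date, 0 with the replicate block, 0 with the compared groups alone, 0 without the 4 libraries of differing group and 0 to 1 with single libraries left out. For the average of diabetes it was 1 without those 4 libraries. The cause of these moves was not tested. Sign changes occurred for 3 results. Nampt averaged over diabetes was -0.213 with the label date and -0.0295 to 0.0402 with single libraries left out. Sirt1 for B12 in diabetic kidneys was 0.0159 under the upper-quartile scaling, 0.0151 without the 4 libraries and -0.0347 to 0.0347 with single libraries left out. For diabetes in untreated kidneys Sirt1 was -0.0153 under that scaling, -0.0533 with the label date and -0.029 to 0.0429 with single libraries left out. The replicate numbers were not a pairing (correlations of same-numbered libraries -0.183 to 0.168, of others -0.188 to 0.25), and the block moved the calls of Nampt for the interaction (adjusted p-value 0.0395) and of Bst1 (0.0515) and Tnks (0.0574) for diabetes in untreated kidneys, and of Haao (0.0652) and Pnp (0.061) for the average of diabetes. The alternatives for Haao, Pnp and Naxe in that average were added after the data were seen. The longest transcript as length moved the levels of Sirt3, Nmnat3, Cd38, Nmnat1, Nadsyn1, Sirt1 and Nnmt by more than their SD. With 4 kidneys in each group, Nnmt, with 788 counts in all, had the widest intervals of the 10 genes.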

Other observations

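Nnt, the mitochondrial transhydrogenase that couples NADH to NADPH, was listed under 2 gene entries, and was looked at after its values were seen. The entry ENSMUSG00000025453 held between 75.0% and 84.4% of the Nnt count in ND_C 1, ND_C 2, ND_C 4, ND_B12 2 and ND_B12 3, and between 9.57% and 22.8% in the other 11 libraries, where the entry ENSMUSG00000116207 held the rest. The sum of both entries was 9073.9 to 9768.1 normalized counts in ND_C and 8181.3 to 9578.4 in D_B12. The split separates libraries within ND_C and within ND_B12, while all 8 diabetic libraries fall on 1 side. Reads of overlapping entries can be divided between them by the counting, and this was not tested.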
